A study of Arabidopsis thaliana with 6 samples.

Results

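Transcripts of 5 nuclear genes for chlorophyll synthesis, GSA1, HEMB1, CHLI2, CHLM and PORB, were followed in expanding rosette leaves of Arabidopsis thaliana wild type and of a sto2 mutant. The genes were chosen by symbol, and each matched 1 of the 13513 probe sets that the array's gene table pairs with a single gene, out of 22746 probe sets tested. A probe set is a group of short probes on the array that together report 1 transcript. The arrays were single-colour Affymetrix arrays, 3 for wild type and 3 for sto2. Wild type was the Col-0 accession, untreated, and sto2, described as a null mutant and as grown in the same way, carried no further allele that the labels name. Plants grew in soil with 16 h of light a day, and leaves 3 to 6 were taken after 3 weeks. The design text calls the samples biological replicates and gives the search for downstream targets of the STO2 protein as the aim. Which locus STO2 is was not stated in the labels, so the mutated gene was not read as a check of them.

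Chlorophyll is built in the plastid by the tetrapyrrole pathway, whose enzymes are encoded in the nucleus. Glutamate is converted to aminolevulinic acid, which is assembled step by step into protoporphyrin. There the pathway divides, with iron leading to heme and magnesium to chlorophyll. In flowering plants the late reduction of protochlorophyllide needs light, and free intermediates of the pathway are phototoxic, so the pathway is closely controlled in growing leaves.

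The leaf identity of the samples was checked in part with marker genes. The gene table pairs a single-gene probe set with 2 of 4 listed shoot apex genes, 1 of 2 phloem genes and 1 of 2 senescence genes. It does so for 0 of 3 flower genes, so flower markers were not read. All 4 mesophyll markers, RCA, PRK, LHCB4.1 and LHCB4.2, read between 2963.3 and 5503.4 signal units on every array. The shoot apex genes CLV3 and UFO exceeded the bacterial control probe sets on 0 of 6 arrays, and the root genes PYK10 and EXP7 on 1 array each. The senescence gene SAG29 exceeded them on 2 of 6 arrays. The phloem exporter SWEET11 read 946 ± 212 in wild type and 1106 ± 109 in sto2 (SD, n = 3 arrays each). The highest bacterial control on an array, used as a stand-in for background, lay between 9.5 and 18.4, and all 5 chlorophyll genes read far above it on all 6 arrays. Signals are linear and were scaled by the authors to a common level per array. They measure RNA of the whole leaf, in which fewer cells of a type and less RNA per cell cannot be told apart.

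Over all probe sets, 29 passed an adjusted p of 0.05 in limma, 0.127% of those tested. Of the 5 chlorophyll genes 0 passed, while 2 had a limma p under 0.05 before adjustment, against 14.1% of all probe sets. For 3 of the 5 genes the wild-type and sto2 readings did not overlap, against 19.2% of all probe sets. CHLI2 was the 1 gene with every sto2 reading higher (9.01% of all probe sets), and CHLM and PORB were the 2 with every sto2 reading lower (10.2%). Among the 1795 probe sets whose mean signal lay within the range of the 5 genes, 357 to 2920, 20.1% had a p under 0.05 and 27.2% had groups that did not overlap. The median log2 difference over the 5 genes was -0.08, against -0.01 over all probe sets. Unless another setting is named, differences of genes are sto2 minus wild type on the log2(signal + 16) scale, with the standard error from limma. Adjusted p-values are then over all 22746 probe sets. Log2 ratios of 2 signals were taken without the added 16.

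**Figure D1:**
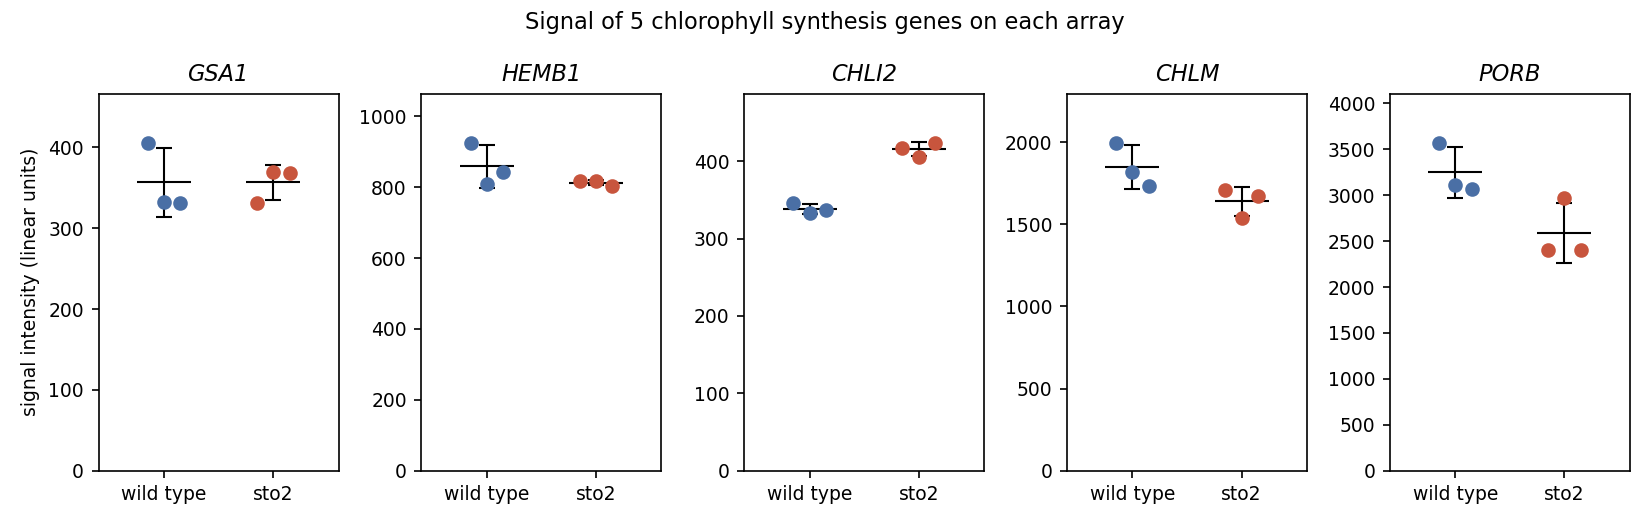
Signal intensity in linear units for each gene on each array, with 1 point per array (replicates 1, 2 and 3 from left to right), horizontal bars at the mean of 3 arrays and error bars of 1 SD. GSA1 and HEMB1 overlap between genotypes, the sto2 points of CHLI2 lie above wild type, and those of CHLM and PORB lie below, with sto2 replicate 2 of PORB close to the wild-type points.

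At the head of the pathway, GSA1 (AT5G63570) encodes glutamate semialdehyde aminomutase, the enzyme that releases aminolevulinic acid. On wild-type arrays 1, 2 and 3 its signal was 405.8, 333.0 and 330.9, and on sto2 arrays 1, 2 and 3 it was 331.4, 370.0 and 368.9. The sto2 readings lay inside the wild-type range. Both genotypes averaged 357, with an SD of 42.7 in wild type and 22.0 in sto2. The log2 difference was 0.01 ± 0.10 (limma adjusted p = 0.99), with a 95% interval from -0.24 to 0.25, or a fold between 0.85 and 1.19. Differences inside that interval could not be told from 0 with 3 arrays a group.

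HEMB1 (AT1G69740) encodes aminolevulinic acid dehydratase, which joins pairs of aminolevulinic acid molecules into porphobilinogen. Its wild-type readings were 925.4, 807.9 and 843.2, and its sto2 readings were 817.0, 816.1 and 804.5. The sto2 arrays were the closer group, with a coefficient of variation of 0.858% against 7.02% in wild type. The sto2 arrays were also closer among the 1795 probe sets of like mean signal, with a median of 6.19% against 8.77%. For HEMB1, 2 of the 3 sto2 readings lay inside the wild-type range. The log2 difference was -0.08 ± 0.08 (limma adjusted p = 0.726), with a 95% interval from -0.26 to 0.11.

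CHLI2 (AT5G45930) encodes an ATPase subunit of magnesium chelatase, the enzyme that inserts magnesium into protoporphyrin at the start of the chlorophyll branch. It is the second of a pair of paralogous genes, and CHLI1 encodes the main form of the subunit. CHLI2 read 345.6, 332.4 and 337.0 in wild type, and 417.4, 405.9 and 423.8 in sto2. All sto2 readings were above all wild-type readings, and the spread within each genotype was narrow, at a coefficient of variation of 1.98% in wild type and 2.18% in sto2. The means of 338 and 416 gave a linear ratio of 1.229. The log2 difference was 0.28 ± 0.07, with a 95% interval from 0.13 to 0.44. It ranked 589 of 22746 by limma p and did not pass after adjustment (limma adjusted p = 0.153). CHLI1 was not analysed here, because the gene table pairs no single-gene probe set with it, and whether the CHLI2 probe set also reads CHLI1 RNA was not tested.

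CHLM (AT4G25080) encodes the methyltransferase that acts on magnesium protoporphyrin, directly after the chelatase. Its signal was 1996.3, 1815.0 and 1734.2 in wild type and 1706.9, 1536.4 and 1672.0 in sto2. The groups did not overlap, but the highest sto2 reading and the lowest wild-type reading were close, at 1706.9 and 1734.2. Means were 1848 ± 134 and 1638 ± 90.1 (SD, n = 3 arrays each). The log2 difference of -0.17 ± 0.09 did not pass (limma adjusted p = 0.43), and its 95% interval, from -0.38 to 0.03, included 0.

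PORB (AT4G27440) encodes a light-dependent NADPH:protochlorophyllide oxidoreductase, which reduces protochlorophyllide to chlorophyllide, and it is a form of the enzyme expressed in green tissue. It read 3572.4, 3110.0 and 3063.8 in wild type and 2405.4, 2965.3 and 2402.3 in sto2. The sto2 readings were all lower, and sto2 replicate 2 stood nearer to wild type than to the other sto2 arrays. The mean was 3249 ± 281 in wild type and 2591 ± 324 in sto2 (SD, n = 3 arrays each), a ratio of 0.798. The log2 difference was -0.33 ± 0.11, with a 95% interval from -0.60 to -0.06, and did not pass (limma adjusted p = 0.282). Without sto2 replicate 2 it was -0.43 and without wild type replicate 1 it was -0.26, and neither passed. PORA and PORC, the other forms of the enzyme, were not analysed here, and whether the PORB probe set also reads their RNA was not tested.

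**Figure D2:**
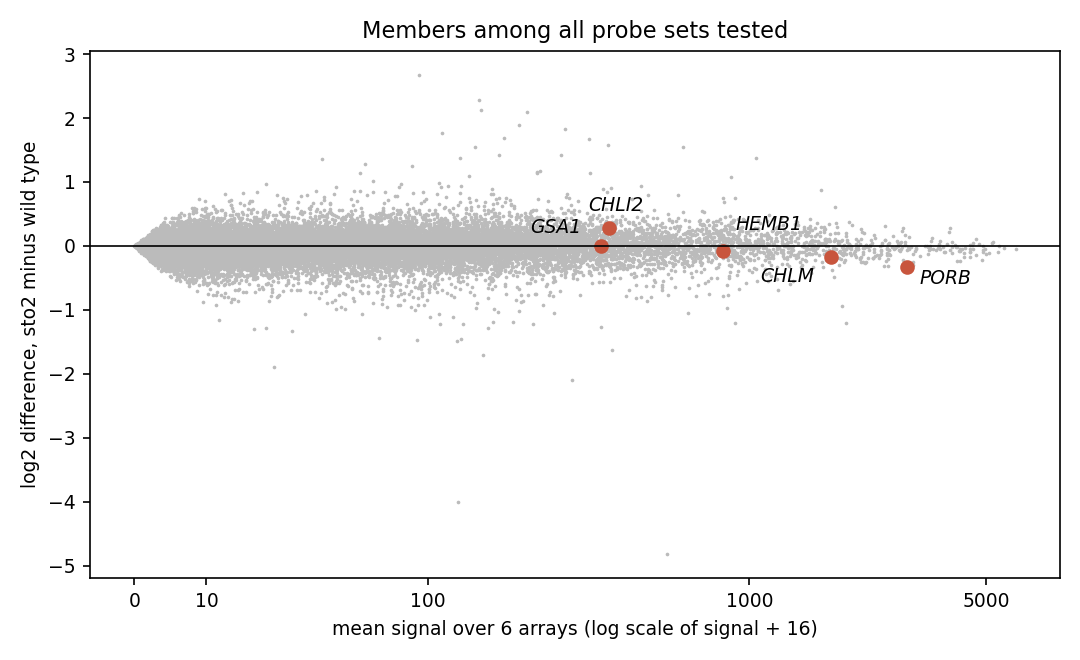
Log2 difference between sto2 and wild type (y axis) against mean signal over 6 arrays (x axis, log scale of signal + 16) for 22746 probe sets in grey, with the 5 chlorophyll genes in red. The 5 genes lie in the brighter part of the array and between -0.33 and 0.28 on the y axis.

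Signals of different probe sets depend on how well their probes hybridise, so the 5 levels are given side by side and no order of transcript abundance along the pathway was drawn from them. The wild-type means, in pathway order, were 357 for GSA1, 859 for HEMB1, 338 for CHLI2, 1848 for CHLM and 3249 for PORB. A ratio of 2 genes on the same array does allow a comparison between genotypes, because the scaling of the array cancels. It shows unequal change and not which of the 2 genes changed.

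Of the 10 pairs that the 5 genes form, 6 had ratios that did not overlap between genotypes, and 4 of these were all the pairs that include CHLI2. Among all pairs of the 1795 probe sets in the same range of mean signal, 29.6% had ratios that did not overlap. The pair that differed most was CHLI2 over PORB, whose ratio was 0.0967, 0.107 and 0.110 in wild type and 0.174, 0.137 and 0.176 in sto2. On the log2 scale the CHLI2 to PORB ratio was 0.63 higher in sto2 than in wild type, with an SD of 0.10 among wild-type arrays and 0.20 among sto2 arrays. CHLI2 over CHLM, the consecutive steps of the chlorophyll branch, read 0.173, 0.183 and 0.194 in wild type and 0.245, 0.264 and 0.253 in sto2, 0.47 higher on the log2 scale. The ratio of HEMB1 to CHLI2 was 2.68, 2.43 and 2.50 in wild type and 1.96, 2.01 and 1.90 in sto2. The other 2 pairs counted were those of PORB with GSA1 and with HEMB1. For HEMB1 over PORB the groups touched, since wild type replicate 3 and sto2 replicate 2 both gave 0.275. GSA1 and HEMB1, the early steps, kept overlapping ratios to each other and to CHLM. These ratios were picked with the single values known, and they are descriptions without a test.

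**Figure D3:**
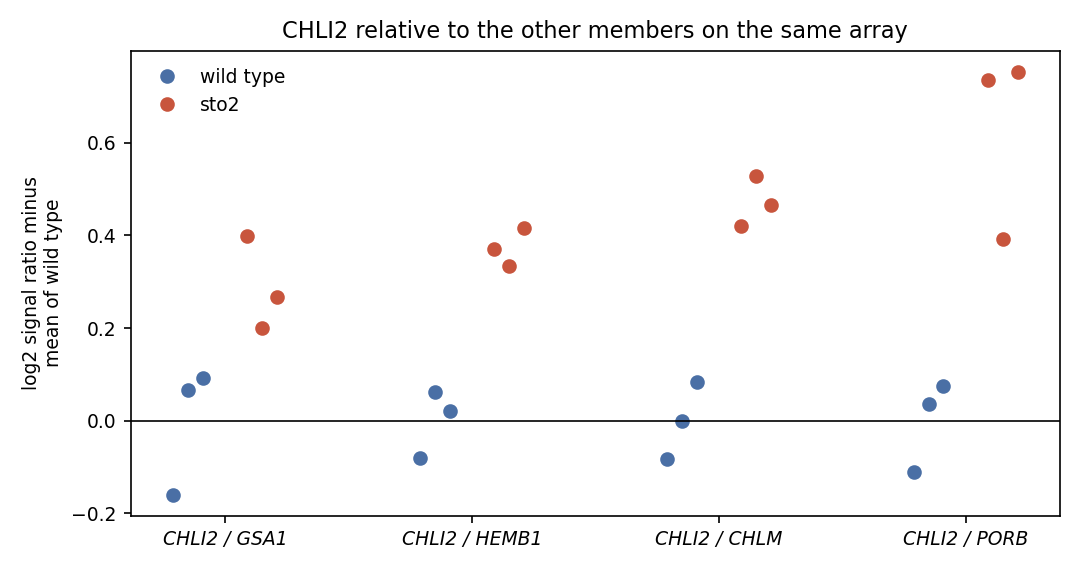
Log2 of the signal ratio of CHLI2 to each of the other 4 genes on the same array, with the wild-type mean of each pair set to 0, and 1 point per array. In every pair the 3 sto2 points lie above the 3 wild-type points, and the pair with PORB shows the widest sto2 spread.

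Within wild type, 1 array read high for these genes. Wild type replicate 1 was the highest of the 3 wild-type arrays for all 5 chlorophyll genes and for 11 of the 12 measured genes of tetrapyrrole synthesis, while it was the highest for 38.5% of all probe sets. No sto2 array stood out likewise: replicates 1, 2 and 3 were highest for 2, 2 and 1 of the 5 genes. Across the 6 arrays the Pearson correlation on the log2 scale was 0.75 between HEMB1 and CHLM, 0.73 between HEMB1 and PORB, and -0.81 between CHLI2 and PORB. These points share arrays and scaling, and the correlations include the difference between genotypes.

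The rest of the pathway was described only in part, from a list of 33 genes of tetrapyrrole synthesis. Genes are called measured where the gene table pairs a single-gene probe set with them, which held for 12, the 5 above among them. The remaining listed genes were not examined, though the array may hold probe sets for them that the gene table does not list or pairs with several genes. Of the 7 measured genes beyond those 5, 0 passed in either direction, against 0.127% of all probe sets. Before adjustment 0 had a limma p under 0.05 (14.1% of all probe sets), and 0 had groups that did not overlap (19.2%). With 7 genes, counts of 0 lie near these shares and do not show an unchanged pathway. The median log2 difference of the 7 genes was -0.02. HEMA2, for glutamyl-tRNA reductase, the step before GSA1, read 63.2 ± 9.60 in wild type and 68.5 ± 11.8 in sto2 (SD, n = 3 arrays each). HEMA3, of the same family, exceeded the bacterial controls on 1 of 6 arrays and HEMB2, the paralog of HEMB1, read 25.0 and 22.6.

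HEME1 and HEME2, for uroporphyrinogen decarboxylase, which trims the side chains of uroporphyrinogen, had log2 differences of opposite sign. They were 0.09 ± 0.08 for HEME1 and -0.07 ± 0.09 for HEME2. HEMF2, which the gene table lists under a coproporphyrinogen oxidase symbol, read 43.9, 8.5 and 42.1 in wild type and 36.2, 52.0 and 57.6 in sto2. Wild type replicate 2 stood apart and read below the bacterial controls of its array, and the log2 difference was 0.54 ± 0.35. CHLP (AT1G74470), for the geranylgeranyl reductase that supplies the phytol tail of chlorophyll, read 2864 ± 231 and 2815 ± 88.4 (log2 difference -0.02 ± 0.08).

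**Figure D4:**
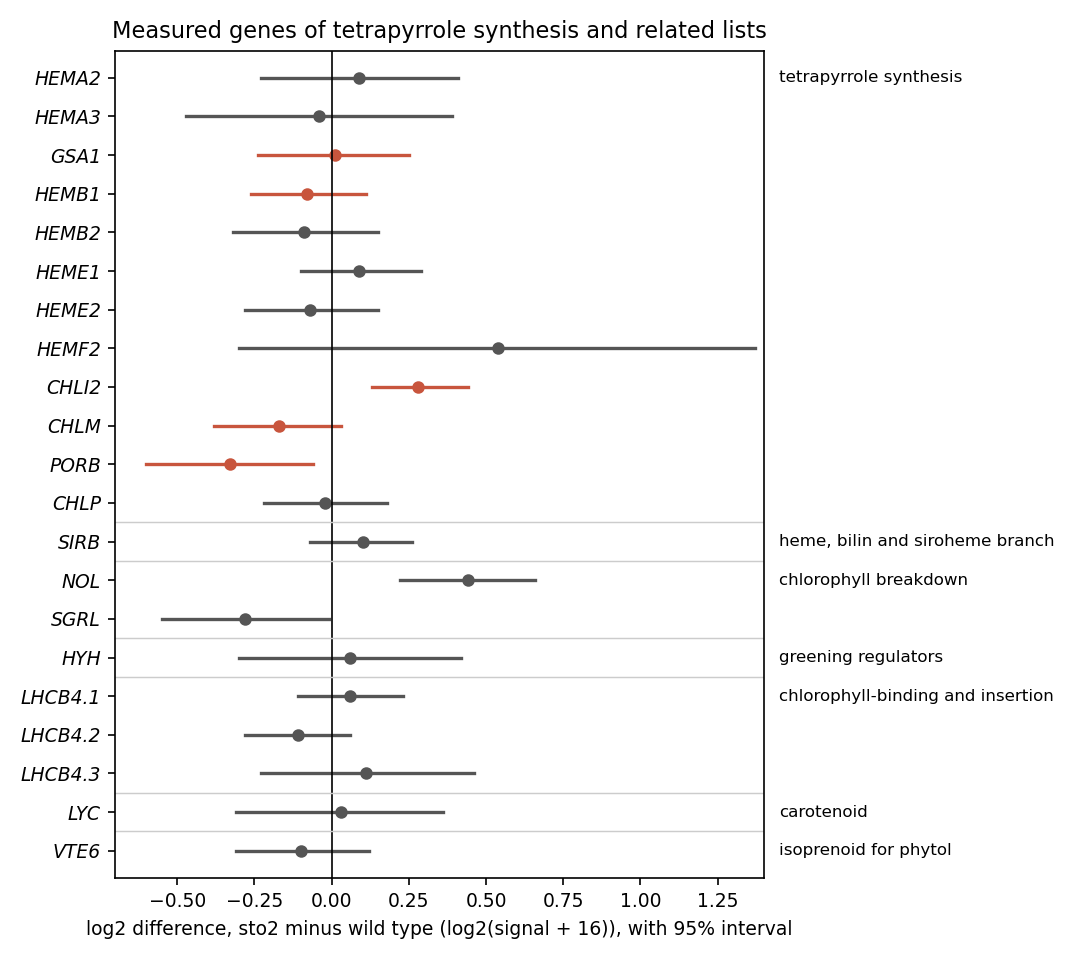
Log2 difference between sto2 and wild type on the log2(signal + 16) scale (points) with 95% intervals (lines) for 21 measured genes, in the order of each list as written, with the 5 chlorophyll genes in red. The intervals of CHLI2 and NOL lie above 0 and those of PORB and SGRL below, before any adjustment for the number of probe sets, and 0 of the 21 genes passed after it.

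Related lists held 9 further measured genes, and 0 of these passed, against 0.127% of all probe sets. They were 1 of 9 listed heme, bilin and siroheme genes, 1 of 15 greening regulators and 3 of 30 chlorophyll-binding and insertion genes. The rest were 1 of 12 carotenoid genes, 1 of 10 genes for phytol and 2 of 13 for chlorophyll breakdown. So few genes do not describe these lists as a whole. In 2 of the 9 every sto2 reading was higher and in 2 every one was lower (9.01% and 10.2% of all probe sets). Both measured genes of chlorophyll breakdown had a limma p under 0.05 before adjustment, against 14.1% of all probe sets. The rest of the 13 listed breakdown genes were not examined, so this is no result for breakdown as a whole. NOL (AT5G04900), a reductase that begins the breakdown of chlorophyll b, read 220.5, 227.0 and 255.7 in wild type and 299.0, 346.9 and 324.7 in sto2. Every sto2 reading was higher, and the log2 difference was 0.44 ± 0.09 (limma adjusted p = 0.123). SGRL (AT1G44000), a relative of the stay-green protein that extracts magnesium from chlorophyll, read 272.2, 293.4 and 341.3 in wild type and 253.3, 217.4 and 264.9 in sto2. Every sto2 reading was lower, and the log2 difference was -0.28 ± 0.11 (limma adjusted p = 0.333).

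None of the 3 measured genes for chlorophyll-binding antenna proteins passed, against 0.127% of all probe sets, and all 3 are LHCB4 genes. LHCB4.1 read 5138 ± 209 and 5362 ± 138, LHCB4.2 read 4492 ± 159 and 4153 ± 137, and LHCB4.3 read 749 ± 137 and 803 ± 64.9 in wild type and sto2 (SD, n = 3 arrays each). Every sto2 reading of LHCB4.2 was lower than every wild-type reading, with a log2 difference of -0.11 ± 0.07 (limma adjusted p = 0.533). SIRB, for the ferrochelatase of the siroheme branch, had a log2 difference of 0.10 ± 0.07, with every sto2 reading higher. LYC, a lycopene cyclase gene of carotenoid synthesis, had 0.03 ± 0.14, and VTE6, a phytyl phosphate kinase gene, had -0.10 ± 0.09. The light regulator HYH exceeded the bacterial controls on 0 of 6 arrays.

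RNA quality was followed with control transcripts that are probed at their 3' and 5' ends. In 5 of the 6 ratios of the 3' to the 5' signal the genotypes differed by -0.08 to 0.05 on the log2 scale. An older set of actin probes gave log2 ratios of 2.52, 2.56 and 2.64 in wild type and 2.32, 2.01 and 1.82 in sto2. The part of this difference in the values of CHLI2, CHLM and PORB was not tested.

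**Figure D5:**
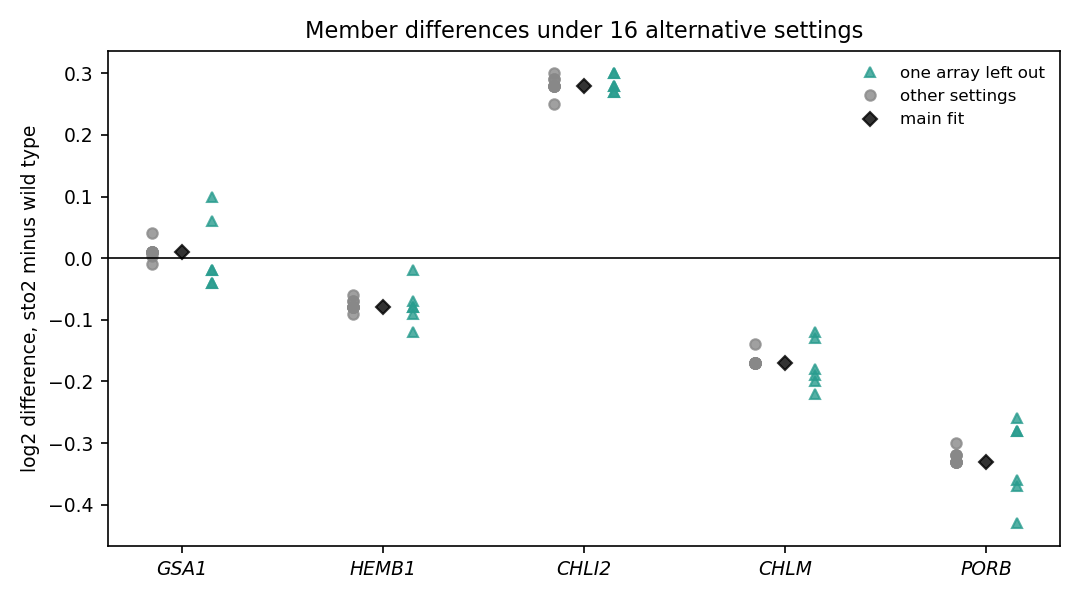
Log2 difference between sto2 and wild type for each chlorophyll gene in the main analysis (black diamonds), with 1 array left out (green triangles) and under the other alternative settings (grey circles). CHLI2 stays between 0.25 and 0.30 and PORB between -0.43 and -0.26, while GSA1 crosses 0.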

How the data were processed

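The deposited values were linear signal intensity per probe set, between 0 and 6616.3. The labels do not state how probes were summarised. Judged by the values, the authors' arrays share a 2% trimmed mean of 100.01, and array medians lay between 37.0 and 38.5, within 0.1 on the log2 scale, so no further normalization was applied. Precision is limited by how few arrays there are. Of 22810 probe sets, 64 controls were left out. Genes were named from the platform's gene table (8730 probe sets unlisted) and checked against RefSeq TAIR10.1 by gene ID. Log2(signal + 16) was fitted in R 4.3.3 by lmFit and eBayes of limma 3.58.1 (2-sided tests, Benjamini-Hochberg adjustment over all probe sets). Background is the highest of 27 bacterial control probe sets on an array. Named genes were the 5 genes, every measured gene of 7 lists, and per gene the 2 most correlated genes. For a listed gene the probe set with the highest mean was used. On simulated data for this comparison (22746 probe sets, 200 changed) the fit called 29.9%, 95.5% and 100% of log2 changes of 0.5, 1 and 2, with 6 false calls. The changed probe sets were drawn from those above the median mean signal, and noise was normal with the variances that limma had moderated. Changes smaller than 0.5, as seen in the 5 genes, were not simulated. Alternatives covered normalization, filters on dim probe sets, the variance prior, array weights, pseudocounts of 1 and 64, a replicate block and leaving out each array. The genes, lists and tests were chosen with earlier results of these data known.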

Additional observations from a re-analysis of the deposited data

How the results depend on the processing

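None of the 5 chlorophyll genes, and none of the 21 measured genes of the lists, passed under any of the 16 alternatives that tested them. The same alternatives called only 2 to 227 of all probe sets. Counts of 0 among 5 or 21 genes therefore do not set these genes apart. CHLI2 (0.25 to 0.30, limma adjusted p 0.0519 to 0.407), PORB (-0.43 to -0.26, 0.167 to 0.556), CHLM (-0.22 to -0.12) and HEMB1 (-0.12 to -0.02) kept their sign in all 16. GSA1, at 0.01, turned to -0.01 with quantile normalization and ran from -0.04 to 0.10 when 1 array was left out. The median over the 5 genes lay between -0.12 and -0.02. The median of the other 7 tetrapyrrole genes was 0.09 without the dimmest 50% of probe sets, which leaves fewer genes, and -0.06 to 0.13 with 1 array left out, 0.13 being without sto2 replicate 1. The count of 29 calls over all probe sets was 147 and 227 without the dimmest 30% and 50% of probe sets, 72 with an intensity trend and robust prior, 70 with array weights, 6 among probe sets with a single gene, 17 and 83 with pseudocounts of 1 and 64, and 5 to 22 with 1 array left out; the cause was not tested. With the replicate number as a block it was 2. The numbers do not pair the samples: deviations of same-numbered samples correlated at -0.42, -0.271 and 0.121, and 1 of 6 samples correlated best with its own number. The block changed no call among the 5 genes.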

Other observations

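For each chlorophyll gene, the 2 genes with the most similar signal over the 6 arrays were picked by Pearson correlation from 5246 single-gene probe sets with a mean signal of at least 50. With 6 arrays and this many candidates, values near 1 are the top of a long list, and they are given as a description. The correlation includes the difference between genotypes, so the choice itself favours genes that share it. Differences, p-values and overlaps of the picked genes are therefore no separate evidence. For CHLI2 they were AT1G09740 (r = 0.998) and AT2G36885 (r = 0.996). AT1G09740 read 38.9 ± 3.60 in wild type and 69.1 ± 3.48 in sto2 (limma adjusted p = 0.061), and AT2G36885 read 247 ± 5.61 and 476 ± 37.4 (limma adjusted p = 0.0216; SD, n = 3 arrays each). For PORB they were AT2G28390 (r = 0.986) and AT4G38900 (r = 0.983). AT2G28390, a SAND family gene often used as a reference gene in plant expression studies, read 144.8, 135.5 and 136.5 in wild type and 114.4, 130.4 and 118.3 in sto2, with groups that did not overlap (log2 difference -0.18 ± 0.08, limma adjusted p = 0.368). For GSA1 they were AT1G13190 (r = 0.998) and AT5G14030 (r = 0.983), both highest on wild type replicate 1 as GSA1 was, a likeness that the choice itself favours. For HEMB1 they were AT1G13570 (r = 0.993) and AT5G49530 (r = 0.982), and for CHLM AT2G25280 and AT3G48140 (r = 0.992 each).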
